A study of Homo sapiens with 4 samples.

Results

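The receptors through which transforming growth factor β (TGFβ), activin and bone morphogenetic protein (BMP) signal were followed by RNA-seq in 4 libraries made at day 8 of stepwise hematopoietic differentiation from H1, an established line of human embryonic stem cells. The 10 genes were taken by symbol from the deposited table, which holds 58365 rows, and each symbol had a single row. They were the type I receptors TGFBR1, ACVR1B, ACVRL1 and ACVR1, the type II receptors TGFBR2, ACVR2A, ACVR2B and BMPR2, and the co-receptors TGFBR3 and ENG. All cells received 40 ng/ml activinA and 50 ng/ml BMP4 for 2 days and then 40 ng/ml VEGF and 50 ng/ml bFGF for 3 days. For the last 3 days VEGF and bFGF were continued with DMSO (2 libraries) or with SB431542 (SB, 2 libraries). By the study's methods, the sequenced cells were sorted for CD31, which the labels do not mention. All libraries came from a single cell line, and the labels do not say whether the replicates were separate differentiations, so p-values measure only the spread between these libraries.

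Ligands of this superfamily bind a complex of type II and type I receptors, both of them serine/threonine kinases. The type II receptor phosphorylates the type I receptor, which then phosphorylates SMAD proteins. The type I receptors ALK5 (gene TGFBR1), ALK4 (ACVR1B) and ALK7 (ACVR1C) act on SMAD2 and SMAD3, while ALK1 (ACVRL1), ALK2 (ACVR1), ALK3 (BMPR1A) and ALK6 (BMPR1B) act on SMAD1, SMAD5 and SMAD9. SB431542 occupies the kinase of ALK4, ALK5 and ALK7 and spares the other type I receptors. In endothelium ALK1 and the co-receptor endoglin (ENG) carry signals of the circulating ligands BMP9 and BMP10, and mutations in either gene cause hereditary hemorrhagic telangiectasia.

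Values are FPKM, fragments scaled to transcript length and to sequencing depth, so levels can be compared between genes per length. The steps by which single fragments raise the lowest values placed the depth of SB replicate 1 at 75.7% of that of SB replicate 2, the deepest library, and that of the DMSO libraries at 93.1% and 90.5%. Of the low genes used for this estimate, between 95.8% and 97.2% of values were whole numbers of fragments within 0.1. The endothelial markers were abundant in each library. The CD31 gene PECAM1 was at 197 and 163.2 FPKM with DMSO and at 182 and 153 FPKM with SB. CDH5, the gene of VE-cadherin, ranged from 202 to 273 FPKM over the 4 libraries, and KDR, the VEGF receptor, from 399 to 440.3 FPKM. Blood genes were present beside them, with GATA1 between 40.9 and 63.0 FPKM, while PTPRC, the gene of the leukocyte antigen CD45, did not exceed 0.202 FPKM. Its low level does not stand for leukocyte genes at large. SPN ranged from 31.6 to 66.8 FPKM and TYROBP from 28.5 to 75.2 FPKM. Libraries also separated by replicate number, so fold changes within each number are given below.

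All 10 receptors were present in the day 8 cells, each with at least 2.54 FPKM in every library. In the DMSO libraries ACVRL1 was the most abundant, followed by ENG, TGFBR3 and TGFBR2, and the libraries of none of these overlapped those of the next receptor. Their mean levels were 67.6 ± 2.04, 56.0 ± 11.6, 38.6 ± 4.74 and 22.4 ± 4.24 FPKM (SD, n = 2 each). TGFBR1 and BMPR2 overlapped at 12.5 ± 3.15 and 11.1 ± 2.58 FPKM, and BMPR2 overlapped ACVR1B at 9.07 ± 0.781 FPKM. ACVR1 (6.95 ± 0.710 FPKM) overlapped ACVR2B (6.29 ± 0.865 FPKM), and ACVR2A was lowest at 3.49 ± 1.35 FPKM. Among the 14909 genes tested, the mean of ACVRL1 over the 4 libraries lay at percentile 90.1 and that of ACVR2A at percentile 25.0. In the least covered case, ACVR2A in DMSO replicate 1, the level corresponded to about 61.5 fragments per kilobase of transcript.

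**Figure D1:**
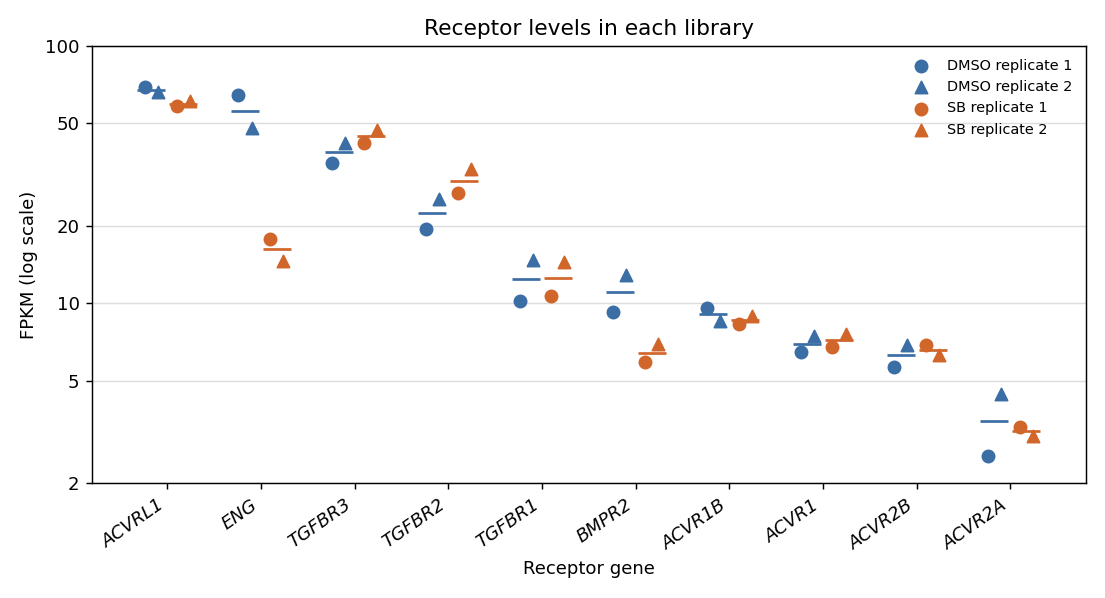
FPKM of the 10 receptor genes in each library on a log axis, ordered by their mean in the DMSO libraries; circles are replicate 1, triangles replicate 2, and short lines the group means. ENG stands at 64.2 and 47.9 FPKM with DMSO and at 17.8 and 14.7 FPKM with SB, while the points of TGFBR1, ACVR1B, ACVR1, ACVR2A and ACVR2B overlap between the groups.

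The order of the receptors differed between the groups for ENG and BMPR2. In the SB libraries ENG moved from place 2 to place 4, below ACVRL1 (59.6 ± 1.78 FPKM), TGFBR3 (44.6 ± 3.51 FPKM) and TGFBR2 (30.0 ± 4.41 FPKM), with no overlap between neighbours. BMPR2 moved from place 6 to place 9 and then overlapped ACVR2B, which in turn overlapped ACVR1. The remaining receptors kept their sequence.

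With limma on log2(FPKM + 1) across all genes, 0 of the 10 receptors passed an adjusted p of 0.05 between SB and DMSO libraries, where 0.134% of the 14909 genes tested did so (20 genes; 0.0268% higher and 0.107% lower with SB). An unadjusted p under 0.05 was reached by 2 receptors, ENG and BMPR2, both lower with SB, where 9.96% of all genes reached it (4.8% higher and 5.16% lower). In 5 receptors the ranges of the groups were apart, where this held for 37.5% of all genes. Of these 5, ENG, BMPR2 and ACVRL1 were lower and TGFBR2 and TGFBR3 were higher with SB, against a background of 16% lower and 21.5% higher. Lower libraries without overlap and a log2 fold change of -0.5 or less, as in ENG and BMPR2, were found in 6.72% of all genes. The median log2 fold change of the 10 receptors was -0.02, beside 0.04 over all genes tested. The summed FPKM of the 10 genes was 232 and 236 with DMSO and 187 and 203 with SB, and the difference of the ENG means alone was larger than the difference of the mean sums.

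**Figure D2:**
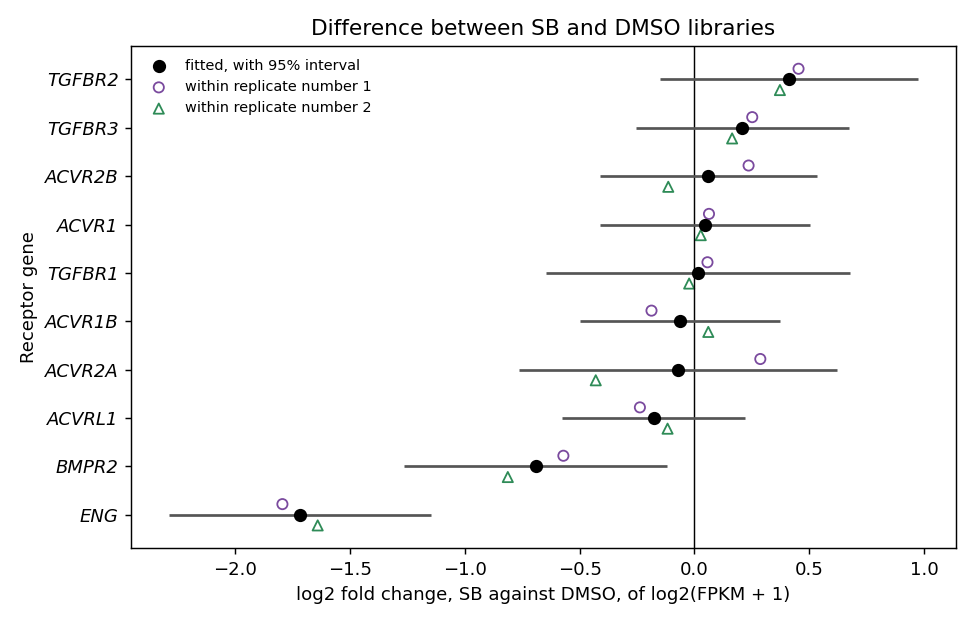
Log2 fold change of each receptor between SB and DMSO libraries on the log2(FPKM + 1) scale, with its 95% interval from limma (line) and the differences within replicate numbers 1 (open circle) and 2 (open triangle). The intervals of ENG (-2.29 to -1.15) and BMPR2 (-1.27 to -0.12) lie below 0, and those of the other 8 receptors hold 0.

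ENG (ENSG00000106991.13, chromosome 9, 127815012 to 127854756, minus strand, GRCh38) encodes endoglin, also known as CD105, an endothelial co-receptor that presents ligands to ALK1. The DMSO libraries held 64.2 and 47.9 FPKM of it, and the SB libraries held 17.8 and 14.7 FPKM. Both SB libraries lay below both DMSO libraries, and the group means (56.0 ± 11.6 and 16.2 ± 2.21 FPKM; SD, n = 2 each) differed 3.45-fold. The log2 fold change was -1.72 (SE 0.22, limma adjusted p 0.0986), with -1.80 within replicate number 1 and -1.64 within number 2. This was the 82nd lowest log2 fold change of the 14909 genes tested. ENG shares 313 exonic nucleotides with AL162586.1 on the opposite strand, which reached at most 1.77 FPKM.

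Against PECAM1, the gene of the antigen by which the cells were collected, ENG was at a ratio of 0.326 and 0.293 in the DMSO libraries and of 0.0978 and 0.0961 in the SB libraries. The ratios of the groups did not overlap. Because the cells were sorted for CD31, PECAM1 does not measure the share of endothelial cells among them. For ENG to PECAM1 the two-sided exact permutation p was 0.333, the smallest that groups of 2 allow. In bulk RNA, fewer cells of a type and less RNA per cell cannot be told apart.

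BMPR2 (ENSG00000204217.13, chromosome 2, 202376936 to 202567751, plus strand) encodes the type II receptor that pairs with ALK1 and with the BMP type I receptors, and its loss underlies heritable pulmonary arterial hypertension. It stood at 9.26 and 12.9 FPKM with DMSO and at 5.91 and 6.92 FPKM with SB. The groups did not overlap, and their means were 11.1 ± 2.58 and 6.41 ± 0.716 FPKM (SD, n = 2 each), 1.73-fold apart. The log2 fold change was -0.69 (SE 0.22, limma adjusted p 0.411), with -0.57 and -0.81 within the replicate numbers.

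The 5′ flanks of ENG and BMPR2, the 2 receptors with the lowest log2 fold changes, are shown for reference. Each run covers 150 bases, beginning 250 bases before the RefSeq start of the gene (GRCh38.p14), 5′ to 3′ on the strand of the gene, and lies outside the bounds of the gene in the annotation of the files. Capitals mark the SMAD box core, GTCT or its complement AGAC.
ENG, chr9:127854759-127854908, minus strand: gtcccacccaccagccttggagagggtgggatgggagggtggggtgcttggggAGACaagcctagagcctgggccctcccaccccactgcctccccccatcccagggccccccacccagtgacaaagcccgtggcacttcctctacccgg
BMPR2, chr2:202376077-202376226, plus strand: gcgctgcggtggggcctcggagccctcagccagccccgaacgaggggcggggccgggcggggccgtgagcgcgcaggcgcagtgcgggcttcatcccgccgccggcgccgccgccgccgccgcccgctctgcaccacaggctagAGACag
Each flank held 1 SMAD box core, as did at least once 61.8% of the 35116 RefSeq windows of the same length. The GC-rich BMP-SMAD element GGCGCC was found 1 time in BMPR2 and 0 times in ENG, and in 9.23% of all windows. The ETS core, GGAA or TTCC, was found 1 time in ENG and 0 times in BMPR2, and in 80.5% of all windows. GC content was 69.3% in ENG and 80.7% in BMPR2. These matches describe the letters of the windows only.

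Of the targets of SB431542, TGFBR1 and ACVR1B were present and ACVR1C was nearly absent. TGFBR1 (ENSG00000106799.12, chromosome 9, 99104038 to 99154192), which encodes ALK5, the TGFβ type I receptor, stood at 10.2 and 14.7 FPKM with DMSO and at 10.7 and 14.4 FPKM with SB. Both SB values lay between the DMSO values, and replicate 2 was the higher in each group. Its log2 fold change was 0.02 (SE 0.25, limma adjusted p 0.994), and the 95% interval of -0.65 to 0.68 leaves room for changes in either direction. ACVR1B (ENSG00000135503.12, chromosome 12, 51951667 to 51997078), which encodes the activin and nodal receptor ALK4, stood at 9.62 and 8.52 FPKM with DMSO and at 8.33 and 8.92 FPKM with SB. Its log2 fold change was -0.06 (95% interval -0.50 to 0.37, limma adjusted p 0.966). ACVR1C (ALK7) had 0.00473 and 0.0287 FPKM in the DMSO libraries. In SB replicate 1 it was listed at 0, and in SB replicate 2 it had 0.0133 FPKM. Even the highest of these values corresponds to about 0.676 fragments per kilobase, too few for a comparison.

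Among the type I receptors that SB431542 spares, ACVRL1 dominated. ACVRL1 (ENSG00000139567.12, chromosome 12, 51906908 to 51923361), the gene of ALK1, stood at 69.0 and 66.1 FPKM with DMSO and at 58.4 and 60.9 FPKM with SB. Both SB values were lower, by 1.13-fold on the means, and the log2 fold change was -0.18 (95% interval -0.58 to 0.22, limma adjusted p 0.820). ACVR1 (ENSG00000115170.13, chromosome 2, 157736444 to 157875862), the gene of the BMP and activin receptor ALK2, stood at 6.45 and 7.45 FPKM with DMSO and at 6.78 and 7.61 FPKM with SB, with a log2 fold change of 0.05 (95% interval -0.41 to 0.50). Its groups overlapped. Of the BMP type I receptors, BMPR1A ranged from 5.49 to 10.4 FPKM over the 4 libraries and BMPR1B did not exceed 0.0944 FPKM.

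Within each library ACVRL1 made up most of the type I receptor FPKM. Its share of the 7 type I genes was 67.5% and 61.6% with DMSO and 65.1% and 60.0% with SB. The targets of the inhibitor, TGFBR1, ACVR1B and ACVR1C together, held 19.4% and 21.7% with DMSO and 21.2% and 23.0% with SB. These shares overlapped between the groups, and the exact permutation p of their log2 difference was 0.667 (two-sided). ACVRL1 exceeded TGFBR1 by 6.74 and 4.50 times with DMSO and by 5.46 and 4.22 times with SB, again with overlap (exact permutation p 0.667).

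**Figure D3:**
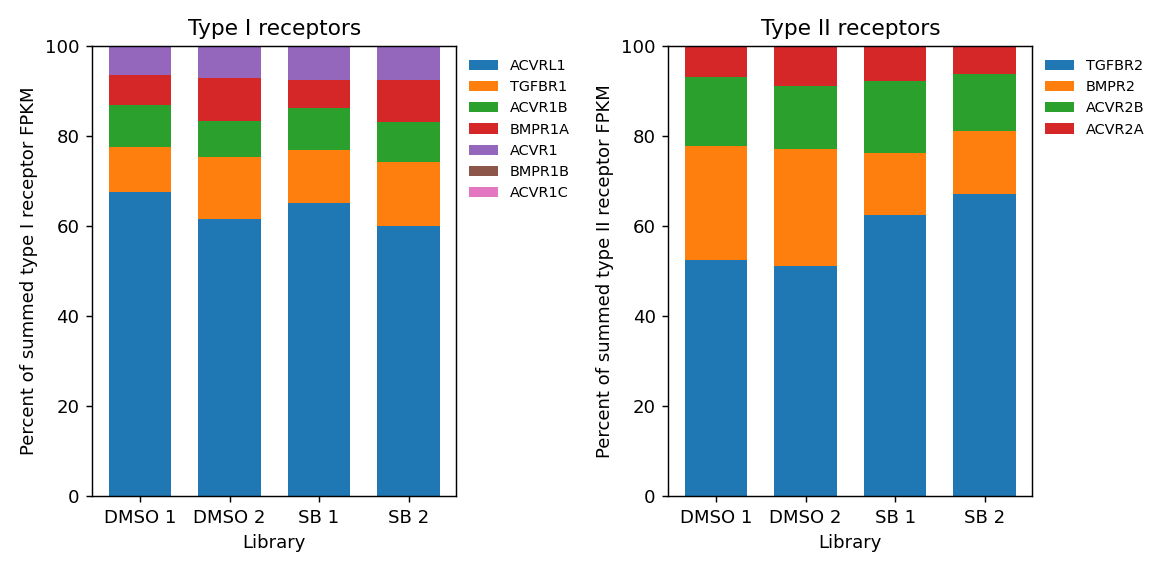
Share of each gene in the summed FPKM of the 7 type I receptors (left) and of 4 type II receptors, without AMHR2 (right). Values are in percent, with 1 bar per library. ACVRL1 holds between 60.0% and 67.5% on the left, and on the right BMPR2 holds 25.1% and 26.0% with DMSO and 13.7% and 14.0% with SB.

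Among the type II receptors followed here (TGFBR2, ACVR2A, ACVR2B and BMPR2), the shares of TGFBR2 and BMPR2 did not overlap between the groups. AMHR2, a further type II receptor, was left out of this total. It stood at 29.2 and 17.7 FPKM with DMSO and at 24.9 and 15.4 FPKM with SB. The shares below hold only for the total without it. TGFBR2 (ENSG00000163513.17, chromosome 3, 30606502 to 30694142), the type II receptor for TGFβ, stood at 19.4 and 25.4 FPKM with DMSO and at 26.9 and 33.1 FPKM with SB. Both SB libraries lay above both DMSO libraries, though SB replicate 1 exceeded DMSO replicate 2 by little. The log2 fold change was 0.41 (SE 0.22, 95% interval -0.15 to 0.97, limma adjusted p 0.670), with 0.45 and 0.37 within the replicate numbers. Of this type II total without AMHR2, TGFBR2 took 52.5% and 51.1% with DMSO and 62.5% and 67.1% with SB. BMPR2 took 25.1% and 26.0% with DMSO and 13.7% and 14.0% with SB. In each library TGFBR2 exceeded its partner TGFBR1, by 1.89 and 1.73 times with DMSO and by 2.51 and 2.29 times with SB (exact permutation p 0.333, the smallest possible).

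The activin type II receptors did not separate the groups. ACVR2A (ENSG00000121989.14, chromosome 2, 147844517 to 147930826) stood at 2.54 and 4.45 FPKM with DMSO and at 3.32 and 3.04 FPKM with SB, so that both SB values lay between the DMSO values. Its log2 fold change was -0.07 (95% interval -0.77 to 0.62), with opposite signs within the replicate numbers (0.29 and -0.43). ACVR2A shares 430 exonic nucleotides with ORC4 on the opposite strand, which reached 23.1 FPKM, and since strand use in counting is not stated, its level is uncertain. ACVR2B (ENSG00000114739.13, chromosome 3, 38453851 to 38493142) stood at 5.68 and 6.90 FPKM with DMSO and at 6.87 and 6.30 FPKM with SB, a log2 fold change of 0.06 (95% interval -0.41 to 0.53). The ratio of ACVR2A to ACVR2B was 0.448 and 0.644 with DMSO and 0.484 and 0.483 with SB, with overlap.

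The second co-receptor, TGFBR3 (ENSG00000069702.10, chromosome 1, 91680343 to 91906335), encodes betaglycan, which presents TGFβ2 to TGFBR2 and binds inhibin. It stood at 35.2 and 41.9 FPKM with DMSO and at 42.1 and 47.1 FPKM with SB. The groups did not overlap, but DMSO replicate 2 and SB replicate 1 were nearly level, and the log2 fold change was 0.21 (95% interval -0.26 to 0.67, limma adjusted p 0.820). The order of the co-receptors differed between the groups. ENG exceeded TGFBR3 in both DMSO libraries, with ratios of 1.82 and 1.14, and was below it in both SB libraries, with ratios of 0.422 and 0.311. The log2 difference of this ratio was -1.99, -2.11 within replicate number 1 and -1.88 within number 2 (exact permutation p 0.333).

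To place ENG among other genes, the 5 genes were taken whose centred log2(FPKM + 1) values over the 4 libraries lay nearest to those of ENG by Euclidean distance. They were GAS6, MMP2, FOXC2, IGFBP7 and SLIT3, at distances of 0.0554 to 0.158. GAS6, a ligand of TAM receptor kinases, stood at 10.3 and 7.79 FPKM with DMSO and at 2.23 and 1.69 FPKM with SB. MMP2, a matrix gelatinase, stood at 93.8 and 72.5 FPKM with DMSO and at 28.3 and 24.4 FPKM with SB. IGFBP7, a secreted protein of vessels, stood at 32.5 and 23.5 FPKM with DMSO and at 7.46 and 6.26 FPKM with SB. FOXC2, a forkhead factor of lymphatic and arterial development, averaged 5.07 FPKM with DMSO and 0.689 FPKM with SB (log2 fold change -1.84). SLIT3, a ligand of ROBO receptors, averaged 3.66 FPKM with DMSO and 0.293 FPKM with SB (-1.83). None of the 5 passed the adjustment (limma adjusted p 0.0948 to 0.141). They were chosen for values near those of ENG, so their fold changes and p are no independent support. Over 4 libraries the likeness is a description.

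The other genes of the pathway were read from the same fit. Of 12 further receptors and co-receptors, 7 were tested and 0 passed the adjustment, with a median log2 fold change of -0.21. NRP2, a neuropilin, stood at 58.9 and 47.7 FPKM with DMSO and at 112 and 90.6 FPKM with SB (log2 fold change 0.92, limma adjusted p 0.253). NRP1 (-0.44) and TDGF1, the co-receptor of nodal (-0.70), had unadjusted p of 0.0387 and 0.0426 (limma). TDGF1 was near the floor, at 0.804 and 1.31 FPKM with DMSO and at 0.224 and 0.298 FPKM with SB. It passed the filter through the DMSO libraries only, so its p is no independent support. Of 23 ligands, 11 were tested and 0 passed, with a median of -0.33. Without overlap, 5 of 11 were lower and 2 higher, GDF7 (0.21) and GDF3 (0.15), beside 16% and 21.5% of all genes. GDF1 and BMP2, both among the lower, and BMP7 passed the filter through the DMSO libraries only. The count of lower ligands is therefore no independent support. TGFB1, which encodes TGFβ1, was by far the highest ligand and tracked the replicate number, at 455 and 202 FPKM with DMSO and at 381 and 183 FPKM with SB. BMP4 stood at 17.7 and 14.4 FPKM with DMSO and at 5.49 and 5.04 FPKM with SB (log2 fold change -1.44, limma adjusted p 0.0983), and TGFB2 at 8.96 and 7.58 FPKM with DMSO and at 3.51 and 1.05 FPKM with SB (-1.60, limma adjusted p 0.308). GDF1, which is transcribed together with CERS1 and is therefore uncertain, had a log2 fold change of -1.80 (limma adjusted p 0.117). The transcripts of the activin subunits INHBA and INHBB did not exceed 0.198 FPKM, and GDF2, the gene of the ALK1 ligand BMP9, was at 0.0245 FPKM in DMSO replicate 1 and listed at 0 in the other libraries. BMP10 ranged from 0.355 to 0.984 FPKM.

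Downstream of the receptors, 0 of 8 SMAD genes passed (median -0.14). The inhibitory SMADs, which compete at activated receptors and mark them for degradation, had the lowest log2 fold changes. SMAD6 stood at 372 and 162 FPKM with DMSO and at 66.9 and 30.5 FPKM with SB (log2 fold change -2.41, limma adjusted p 0.259), and SMAD7 had a log2 fold change of -2.05 (limma adjusted p 0.193). SMAD9, an effector of the BMP branch, followed by unadjusted p (-0.49). It passed the filter through the DMSO libraries only, so its p is no independent support. Of 20 regulators of receptor turnover and activity, all 20 were tested and 0 passed (median -0.04). SKIL, a repressor of SMAD transcription, stood at 7.77 and 11.1 FPKM with DMSO and at 2.10 and 2.00 FPKM with SB (log2 fold change -1.76, limma adjusted p 0.0983). PMEPA1, a feedback inhibitor, and SMURF2, a ubiquitin ligase of receptors, had log2 fold changes of -1.81 and -0.88.

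**Figure D4:**
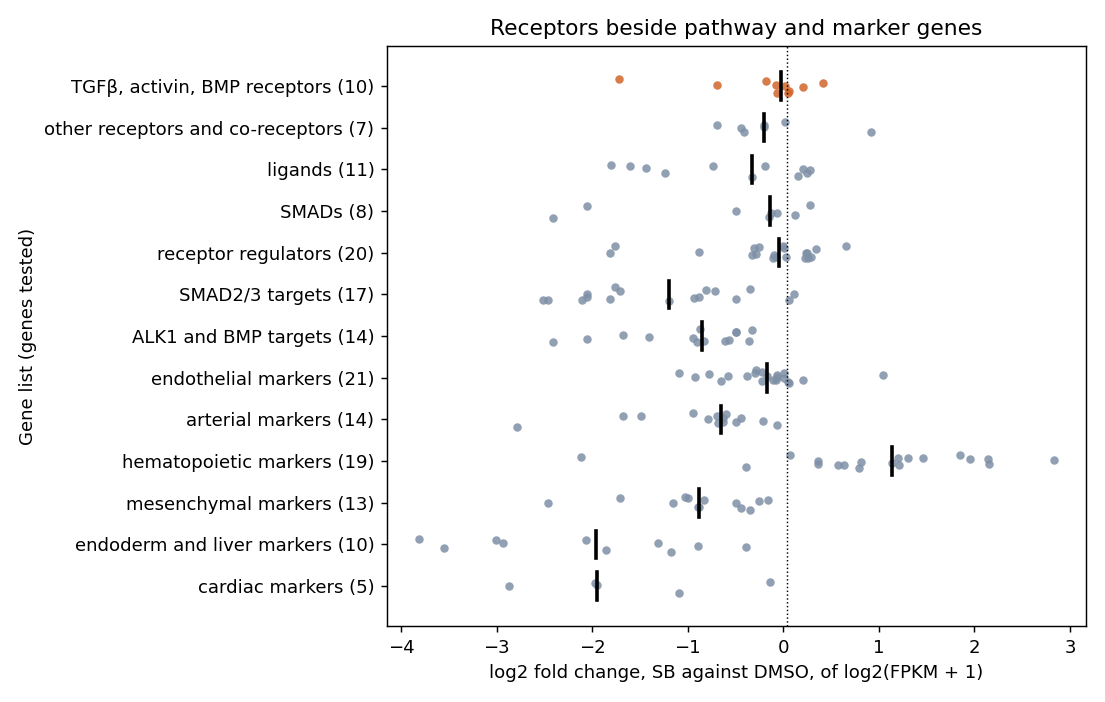
Log2 fold change between SB and DMSO libraries of each tested gene of the receptors and of 12 lists, with the list median as a black bar, the number of genes tested in parentheses and the median of all genes tested as a dotted line. The receptors lie around 0 (median -0.02) apart from ENG and BMPR2, while SMAD2/3 targets have a median of -1.20 and ALK1 and BMP targets a median of -0.85.

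Most tested targets of both receptor branches were lower with SB without overlap. Of 17 tested SMAD2/3 targets, 1 fell with an adjusted p under 0.05 and 15 were lower without overlap, beside 0.107% and 16% of all genes, with a median log2 fold change of -1.20. TGFBI, a secreted matrix protein, fell from 30.4 to 4.52 FPKM on average (log2 fold change -2.51, limma adjusted p 0.0365). FN1 (-2.10) and COL1A1 (-2.46) had limma adjusted p of 0.0646 each. Of 14 tested ALK1 and BMP targets, 0 passed and 13 were lower without overlap (16% of all genes), with a median of -0.85. ID1, an inhibitor of bHLH factors, stood at 470.2 and 505 FPKM with DMSO and at 179 and 187 FPKM with SB (log2 fold change -1.41, limma adjusted p 0.0803). HEY2 (-1.67) and ID3 (-0.87) had limma adjusted p of 0.0697 and 0.187. Some genes stand in more than 1 list, so the counts of the lists are not separate. SMAD7 stands in both target lists, and HEY1 and HEY2 stand also among the arterial markers. CTGF, CDKN2B and SMAD9, among the lower targets, passed the filter through the DMSO libraries only. They add no independent support to these counts.

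Markers of cell types that the collected cells could hold also differed in level between the groups, and their part in the values of ENG and BMPR2 was not tested. Of 21 endothelial markers 0 passed (median -0.17, 6 lower and 2 higher without overlap, beside 16% and 21.5% of all genes). Their summed level was 4901 to 7273 FPKM with DMSO and 4007 to 5472 FPKM with SB. PLVAP was the largest part of this sum, at 3407 and 1645 FPKM with DMSO and at 1936 and 991 FPKM with SB. Its groups overlapped, and the sum does not stand for the list. ROBO4 (-1.09), SOX7 (-0.58) and CLDN5 (1.04) came first by unadjusted p. Of 14 tested arterial markers 1 fell, the connexin GJA5 (log2 fold change -2.78, limma adjusted p 0.0365), and 10 were lower without overlap, beside 0.107% and 16% of all genes. HEY2 and UNC5B (-1.49) followed. The summed arterial level was 2033 to 2688 FPKM with DMSO and 1100 to 1429 FPKM with SB. Of 13 tested mesenchymal markers 0 passed, and 11 were lower without overlap (16% of all genes, median -0.88), COL1A1, TAGLN (-1.70) and COL3A1 (-1.03) first. PRRX1, among the lower, passed the filter through the DMSO libraries only. Their sum was 696 to 864 FPKM with DMSO and 450 to 554 FPKM with SB, and DCN and POSTN did not exceed 0.577 FPKM.

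Hematopoietic markers had a median of 1.14 over 19 tested genes, with 16 higher and 2 lower without overlap (21.5% and 16% of all genes) and 0 past the adjustment. The lower genes were embryonic globins, named after their values were seen. HBZ stood at 145.7 and 109.5 FPKM with DMSO and at 33.2 and 24.1 FPKM with SB (log2 fold change -2.12, limma adjusted p 0.0910), and HBE1 had a log2 fold change of -0.39. Of the higher genes, GP1BB, CSF1R and PPBP had log2 fold changes of 2.15, 2.14 and 2.83, with limma adjusted p of 0.0753, 0.0753 and 0.0798. PPBP passed the filter through the SB libraries only, so its p is no independent support. The summed level was 1249 to 1305 FPKM with DMSO and 1472 to 1520 FPKM with SB. HBE1 was the largest part of this sum, at 614 and 676 FPKM with DMSO and at 460 and 524 FPKM with SB. Of 10 tested endoderm and liver markers 4 fell and 9 were lower without overlap, beside 0.107% and 16% of all genes. SERPINA1, FGB, APOB, FOXA2, HNF4A and FOXA1 passed the filter through the DMSO libraries only. The count of lower genes is therefore no independent support. The 4 genes that fell passed the filter in both groups. APOA1 (-3.81, limma adjusted p 0.0201), AFP (-3.55, limma adjusted p 0.0232) and TTR (-3.00, limma adjusted p 0.0353) were among those that fell. The summed endoderm and liver level was 293 to 331 FPKM with DMSO and 30.8 to 33.6 FPKM with SB. Of 10 listed cardiac markers 5 were tested and 1 fell, ACTC1 (-2.87, limma adjusted p 0.0365), beside 0.107% of all genes. ACTC1 and MYL7 passed the filter through the DMSO libraries only. The p of ACTC1 and the count are therefore no independent support. HAND1 (-1.97) and NKX2-5 (-1.95) came next by unadjusted p, and HAND2 was at -0.14. The summed cardiac level was 59.9 to 82.7 FPKM with DMSO and 19.2 to 25.5 FPKM with SB. No gene of these 6 marker lists was at 0 in all libraries. Over all genes tested, 0.134% passed the adjustment. In all lists together 7 genes passed the adjustment, and 0 did so without any 1 of the 4 libraries.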

How the data were processed

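Human H1-derived cells at day 8 were profiled by RNA-seq in 2 DMSO and 2 SB libraries. The authors deposited a table of FPKM values per gene. The submitters' processing notes name BWA, Bowtie, RSEM and hg19 without roles, whereas the row positions match GENCODE 29 on GRCh38 (95.5% of identifiers, of which 99.8% at the same position), so coordinates are GRCh38. Strand use in counting is not given in the sources used here. Genes with a mean of at least 1 FPKM in at least 1 group (14909) were compared on log2(FPKM + 1), which understates changes of low genes, with limma 3.58.1 (trend, R 4.3.3) and Benjamini-Hochberg adjustment at 0.05. TDGF1, GDF1, BMP2, BMP7, SMAD9, CTGF, CDKN2B, PRRX1, FOXC2 and SLIT3 passed the filter of 1 FPKM through the DMSO group only. So did ACTC1, MYL7, SERPINA1, FGB, APOB, FOXA2, HNF4A and FOXA1. PPBP passed it through the SB group only. These genes add no independent support to the counts of their lists. Ratios within libraries were compared by two-sided exact permutation. The fit was checked on simulated data. Named genes were the 10 receptors, up to 3 genes per list with the smallest unadjusted p, PECAM1, ACVR1C, BMPR1A, BMPR1B and the 5 genes nearest to ENG. Other genes in the text (CDH5, KDR, GATA1, PTPRC, SPN, TYROBP, AMHR2, TGFB1, INHBA, INHBB, GDF2, GDF3, GDF7, HBZ, HBE1, BMP10, DCN, POSTN, PLVAP, HEY1 and HAND2) were chosen after their values were seen. So were the genes named only for how they passed the filter. The receptors and lists were chosen with earlier results of these data known. Depth was estimated from the steps that single fragments make in low FPKM values of single-exon genes. Alternatives were other scalings, pseudocounts and filters, a replicate block, leaving out each library, and division by PECAM1.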

Additional observations from a re-analysis of the deposited data

How the results depend on the processing

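With 2 libraries a group, the count of genes past the adjustment depended on the processing. It was 20 as reported, 31 after quantile scaling, 0 without the filter on low values (2739 genes at an unadjusted p under 0.05, limma) and between 0 and 14 when each library was left out, with 1168 at an unadjusted p under 0.05 without DMSO replicate 1. The count was 0 without DMSO replicate 1, 10 without SB replicate 1 and 9 without SB replicate 2. Genes of the lists past the adjustment numbered 7 as reported, 0 without the filter and 0 without any 1 library. In these fits the lone library left in a group is assumed to vary like those of the other group. Leaving out libraries gave 0 receptors past the adjustment in each case. ENG kept its sign under all alternatives run, with log2 fold changes of -1.93 to -1.51, as did BMPR2 (-0.91 to -0.47), TGFBR2 (0.23 to 0.60), TGFBR3 and ACVRL1. In these 5 receptors the groups did not overlap, so leaving out a library could not change the sign. The filters and the replicate block leave a fold change as it is. The other 5 receptors changed sign under at least 1 alternative. ACVR2A ran from -0.38 without DMSO replicate 1 to 0.24 without DMSO replicate 2 (limma adjusted p 0.748), and failed the stricter filter. Divided by PECAM1, ACVR1B was at 0.04 and ACVRL1 at -0.07. With each library left out, medians ran from -0.10 to 0.16 for the receptors, -0.47 to -0.16 for other receptors, -0.78 to -0.18 for ligands, -0.29 to -0.11 for SMADs, -0.11 to 0.06 for regulators and -0.31 to -0.05 for endothelial markers. The median of the SMAD2/3 targets was -1.88 with a pseudocount of 0.1. The causes were not tested.

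Adding replicate number to the fit as a block let 1564 of the 14909 tested genes pass, 820 of them higher, where 20 passed without it. Among those 1564 were 82 genes of the lists and 3 receptors: ENG (limma adjusted p 0.0036), BMPR2 (0.0325) and TGFBR2 (0.0438). The receptors are thus to be read against a much larger share of all genes than in the main fit. Over the other alternatives the adjusted p of ENG ran from 0.0679 to 0.390. The labels do not say that equal numbers mark shared cultures. The deviations of same-numbered libraries from their group means correlated at 0.528, a single value for both pairs by construction, so the pairing is not established.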
